A study of Mus musculus with 14 samples.

Results

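The step from 24 h to 36 h of hypoxia was examined in the mouse mammary tumor line 4T1 as the difference between 2 lists of accessible chromatin. A list holds the peaks called by bulk ATAC-seq, in which a transposase inserts adapters into open DNA, on the pooled reads of the 2 samples of a group. Both groups had been cultured at 1% oxygen in a hypoxia workstation, for 24 h or for 36 h, and had been fixed there; the series has 14 samples in 7 groups, with cells of the same line in normoxia (Ctrl) and at 6, 12, 48 and 72 h of hypoxia besides. All unique intervals of the 24 h list and of the 36 h list were taken, and 2 peaks overlapped when they shared at least 1 base. Of the 463526 peaks of the 7 lists, 71656 belonged to the 24 h list and 62695 to the 36 h list. A 36 h peak without a 24 h peak is called new (8674 peaks, 13.8% of the 36 h list), a 24 h peak without a 36 h peak is called left behind (18152 peaks, 25.3% of the 24 h list), and the rest are shared (54021 peaks of the 36 h list and 53504 of the 24 h list). The same was done with the 20000 peaks of highest fold enrichment of each list. Since each list pools a group, no value below has a replicate error and no test between 24 h and 36 h was possible; 95% intervals are exact (Clopper-Pearson) and cover counting error only.

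Cells short of oxygen stabilize the alpha subunits of the hypoxia-inducible factors (HIF), which pair with ARNT and bind a short DNA word in promoters and enhancers of genes for glucose uptake, glycolysis, blood vessel growth and oxygen sensing. Distal elements of epithelial tumor cells often carry the word bound by AP-1, the dimers of Fos and Jun proteins, and open or close more readily than promoters. CTCF binds longer sites that mark the borders of chromatin loops. A peak list records only whether reads at a site exceeded the local background, so a peak missing from a list can be a closed site or a weakly covered one.

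The lists differed in their signal. The genome background, recovered from the fold enrichment and p-value of each summit, was 1.85 reads at 24 h and 2.22 reads at 36 h, and the median shared region stood 15.7-fold over it at 24 h and 11.3-fold at 36 h. Over the 7 lists the background ran from 0.926 reads in normoxia to 3.25 at 6 h, so reads are not comparable between lists by themselves. The value of -log10 q sets them against the background of their list, but it also depends on depth. The part of this gap in the results below was not tested, and the values that bear on it are given with them. A promoter peak was called in each of the 7 lists for 15 of 21 epithelial identity genes, Epcam, Cdh1, Krt8 and Krt18 among them, and Krt5, Grhl3 and Cldn7 had none in any list. Of 16 genes of the mesenchymal transition, 10 had one in all 7 lists, Vim, Fn1, Zeb2, Snai1 and Twist1 among them. Cdh2, Zeb1, Twist2 and Mmp2 had none in any list. Of 8 immune marker genes, Cd68 had a promoter peak in all 7 lists, Lyz2 at 36 h alone (-log10 q 4.60) and Sfpi1 at 48 h alone. Of 6 fibroblast markers, Col1a1, Col1a2 and Pdgfra had one at both times. Of 5 endothelial markers, Pecam1 had one at 12 h (-log10 q 10.7), 36 h (3.31) and 48 h (2.28), and not at 24 h. Ptprc, Cd3e, Itgam, Emr1, Col3a1, Pdgfrb, Dcn, Cdh5, Kdr, Tek and Emcn had none in any list.

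The DNA at the strongest peaks of each kind is shown first, because the word for AP-1 was less frequent in new peaks than in those left behind. Each line gives 151 bases centred on the summit, from NCBIM37 (the assembly of mm9, the build of the lists), plus strand, with AP-1 (TGAGTCA or TGACTCA), HIF (ACGTG or GCGTG), CTCF and C/EBP matches on either strand in capitals; C/EBP was searched as TTGCNNAA and CTCF by its consensus. First come 3 of the 4 strongest new peaks, then the 3 strongest left-behind peaks, ranked by -log10 q, the negative decimal logarithm of the q-value.
Cst11 new, chr2:148589919-148590069: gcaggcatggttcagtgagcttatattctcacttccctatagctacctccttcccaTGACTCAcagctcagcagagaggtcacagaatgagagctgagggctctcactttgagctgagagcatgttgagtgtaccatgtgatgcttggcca
Lep new, chr6:28981347-28981497: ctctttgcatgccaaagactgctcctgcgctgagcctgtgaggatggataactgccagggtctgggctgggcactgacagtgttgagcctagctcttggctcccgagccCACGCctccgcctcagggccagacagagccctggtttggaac
Ppp1r12a new, chr10:107628662-107628812: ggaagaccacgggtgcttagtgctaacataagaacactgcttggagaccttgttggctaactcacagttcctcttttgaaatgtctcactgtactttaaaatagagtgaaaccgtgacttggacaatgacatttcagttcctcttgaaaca
Gm1979 left behind, chr5:26332510-26332660: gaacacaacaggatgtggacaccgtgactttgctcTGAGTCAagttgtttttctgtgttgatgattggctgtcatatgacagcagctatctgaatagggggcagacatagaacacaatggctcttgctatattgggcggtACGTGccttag
Khdrbs2 left behind, chr1:32131801-32131951: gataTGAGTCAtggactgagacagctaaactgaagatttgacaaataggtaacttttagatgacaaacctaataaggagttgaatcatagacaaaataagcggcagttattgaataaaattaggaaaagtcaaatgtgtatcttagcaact
Dok2 left behind, chr14:71172651-71172801: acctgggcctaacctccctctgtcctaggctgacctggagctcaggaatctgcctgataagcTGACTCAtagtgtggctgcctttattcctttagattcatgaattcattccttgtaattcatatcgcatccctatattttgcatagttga

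AP-1 words were found in the lines of Cst11, Gm1979, Khdrbs2 and Dok2, a HIF word in those of Lep and Gm1979, and none of the 4 motifs in that of Ppp1r12a. Among the 10 strongest new peaks, 4 had an AP-1 word within 100 bp of the summit, against 6 of the 10 strongest left behind. These are descriptions of single windows.

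The strongest new peak lay between genes, 7239 bp downstream of the start of Cst11, which encodes a cystatin, with 29 reads at its summit and a 9.32-fold enrichment at 36 h (-log10 q 20.2). It was also called in normoxia (-log10 q 4.04) and at 12 h (7.13), 48 h (11.9) and 72 h (7.31), so its absence was limited to 6 h and 24 h. The second lay 28798 bp upstream of Lep, the leptin gene, with 28 reads at 36 h against 17 (6 h), 14 (12 h), 19 (48 h) and 18 (72 h) in the other lists that had it. A peak in an intron of Ppp1r12a, which encodes the targeting subunit of myosin phosphatase, had 31 reads at 36 h and 12 to 14 reads in the 4 other lists that had it. These peaks were strongest at 36 h and mostly weaker, not absent, at other times.

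A new peak in an intron of Met, the receptor of hepatocyte growth factor, 8998 bp from its start (chr6:17505686-17506139), had 29 reads at 36 h, after 34 at 12 h, followed by 22 (48 h) and 18 (72 h), and was in no other list. A peak 4226 bp upstream of Tmem125 was found at 36 h (29 reads) and at 6 h (52 reads) alone. A peak 8120 bp upstream of Zfp799, a zinc finger gene, was in every list but that of 24 h, with 13 to 25 reads. The remaining new peaks of the first 10 lay in an intron of Mbp, near N6amt1 and Chsy3, and 29 bp from a start of Gm16515, with -log10 q from 15.0 to 18.9. All 10 were in at least 1 other list, and 9 of them were called at 12 h, the longest list (81732 peaks).

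The strongest peak left behind lay 1247 bp upstream of Gm1979, with a -log10 q of 10.5 in normoxia, 5.42 (6 h), 22.7 (12 h), 28.4 (24 h), 11.5 (48 h) and 6.90 (72 h), and with 42 reads at 24 h. A peak 97775 bp upstream of Khdrbs2, an RNA-binding protein gene, had 8 reads in normoxia, 17 at 6 h, 28 at 12 h and 32 at 24 h, no peak at 36 h, then 17 at 48 h and 21 at 72 h. Its -log10 q was 4.04, 5.59, 18.8 and 26.2 up to 24 h, then 7.45 and 10.8. A peak in a Dok2 intron, 353 bp from an annotated start of this gene for a docking protein of tyrosine kinases, had 33 reads at 24 h, 19 at 12 h, 17 at 48 h and 8 in normoxia. All 3 had returned by 48 h.

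The peak near Srek1, a splicing regulator gene, had 19 reads in normoxia, then 42 (12 h) and 30 (24 h), and later 29 (48 h) and 22 (72 h). In the same order its -log10 q was 16.7, 34.7, 23.8, 18.9 and 11.7. The peak 38138 bp downstream of the start of Enpp1, an ectonucleotide pyrophosphatase gene, had 42 reads at 12 h, 30 at 24 h and 30 at 48 h. Tspyl5, Gm17394, Mast4 and Tom1 gave the nearest starts of 4 more, with 29 to 37 reads at 24 h. A peak 76277 bp from the start of Adamts6, a metalloprotease gene, had the most reads of the 10, 52 at 24 h, after 18 in normoxia, 24 at 6 h and 34 at 12 h, and was absent at 36, 48 and 72 h. From normoxia to 24 h its -log10 q was 6.21, 6.93, 8.67 and 24.8. The Adamts6 peak was the only one of the 10 with no peak at 48 h. All 10 had a peak at 12 h, the longest list.

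**Figure D1:**
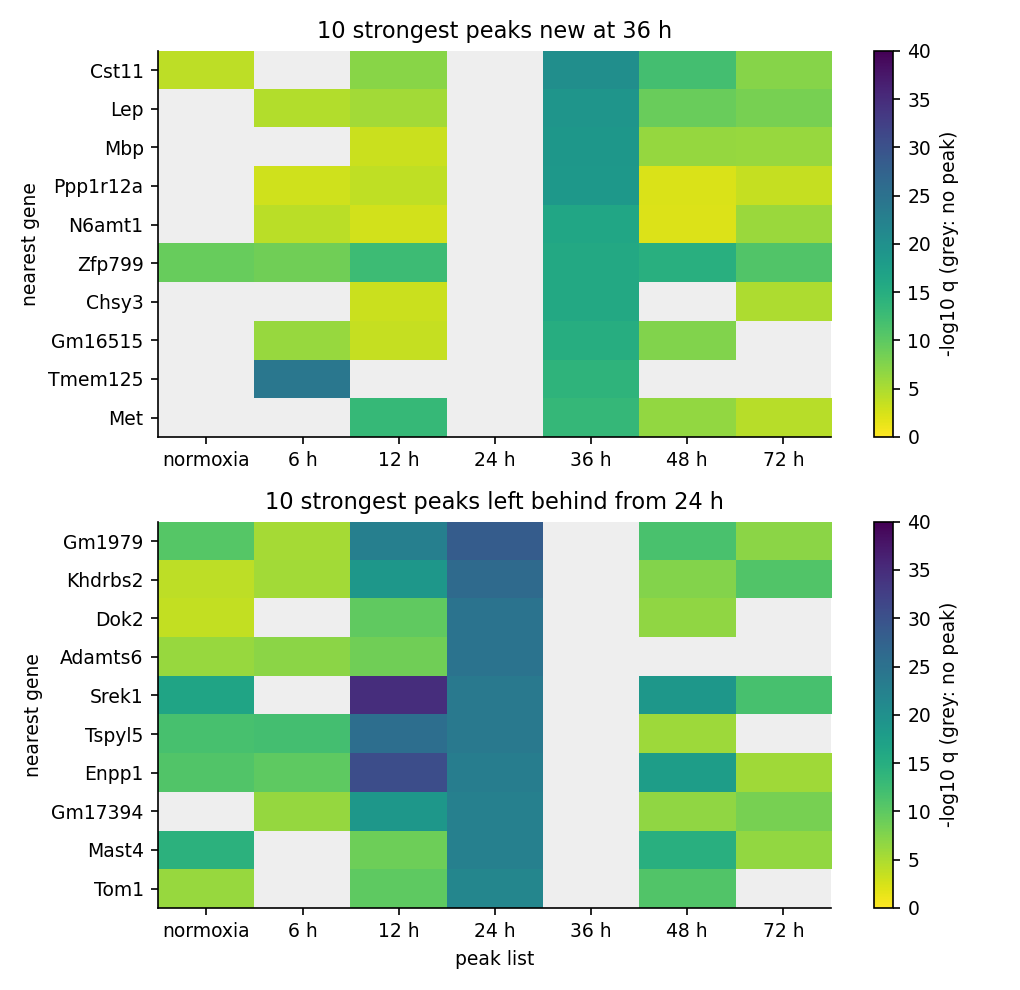
Values of -log10 q in the 7 lists (columns) for the 10 strongest new peaks (upper panel) and the 10 strongest left-behind peaks (lower panel), each named by its nearest gene, with grey where a list had no peak. The column of 24 h is empty in the upper panel and that of 36 h in the lower by the choice of the peaks, and Tmem125 is the only one of the 20 that is strongest at a time other than 12 h and the time that chose it.

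Few strong sites differed in full. New peaks were 13.8% of the 36 h list (interval 13.6 to 14.1) and left-behind peaks 25.3% of the 24 h list (25.0 to 25.7). Both were mainly weak peaks: the median summit held 12 reads in new peaks and 11 in left-behind peaks, against 25 and 29 in shared peaks of the 36 h and 24 h lists. The median -log10 q was 3.31 in new and 4.03 in left-behind peaks, against 11.9 and 16 in shared ones. The median width was 248 and 270 bp against 472 and 533 bp.

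At the same number of summit reads, 24 h peaks were missing from the other list more often than 36 h peaks. With 10 to 12 reads, 59.9% of 24 h peaks had no 36 h peak (59.0 to 60.8) and 41.3% of 36 h peaks had no 24 h peak (40.3 to 42.3). With 21 to 30 reads the shares were 9.61% and 2.87%, and with 31 to 50 reads 2.32% and 0.411%. Above 50 reads, 15 of 13217 24 h peaks were left behind, and 0 of 10095 36 h peaks were new, which allows a share of up to 0.0365% (upper bound of the exact interval). These shares compare reads within each list, and a given number of reads stood lower over the background at 36 h.

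**Figure D2:**
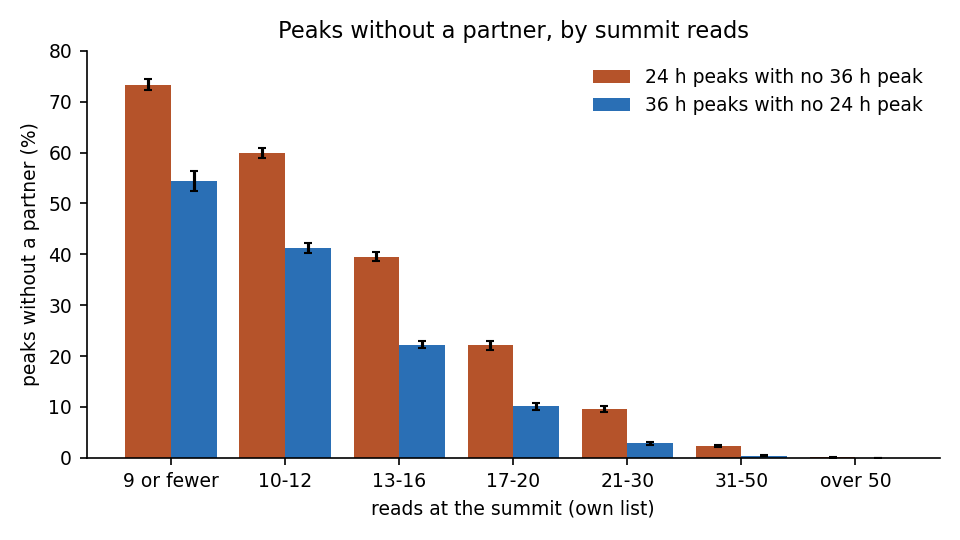
Share of peaks without a partner (percent, with exact 95% intervals) by the number of reads at the summit, for 24 h peaks against the 36 h list (brown) and 36 h peaks against the 24 h list (blue). In every class of reads the brown bar is the higher, from 73.3% against 54.4% in the weakest class down to 0.113% against 0 above 50 reads.

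Among the 20000 strongest peaks of each list, 3718 of the 36 h list and 3718 of the 24 h list (18.6% each) had no partner among the strongest of the other. The rank ended within ties: the last peak inside and the first outside had the same fold enrichment, 8.43 at 24 h and 7.14 at 36 h. Most of the 3718 had a weaker peak in the full other list; 11 of the 36 h peaks (0.296%) and 83 of the 24 h peaks (2.23%) had none at all.

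The leading 36 h peaks of that kind lay in introns of Kctd16, Gfpt1, Ccdc11, Apool (nearest start that of Satl1) and Dip2a. Gfpt1 encodes the first enzyme of the hexosamine pathway, which branches from glycolysis, and its intron peak (chr6:87019144-87019696) had 18, 24, 39, 18, 40, 46 and 38 reads in the 7 lists in order of time, from normoxia to 72 h. Its -log10 q was 15.4, 11.2, 31.3, 10.5, 33.2, 37.2 and 28.7, lowest at 24 h and 6 h. The leading 24 h peaks lay in introns of Atrnl1, Cdc42bpb and Tmcc1 and near Nuf2 and Bdnf. The peak 142353 bp upstream of Bdnf, a neurotrophin gene, had 33, 26, 55, 48, 19, 32 and 23 reads in the same order, and its -log10 q was lowest at 36 h (9.97). All 10 regions had a peak in all 7 lists, so here the step was one of strength and not of presence.

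The other 5 lists, which had no part in choosing the peaks, placed most of the differing peaks elsewhere in the time course. Of the 18152 left-behind peaks, 61.3% were in the 12 h list and 48.6% in the 48 h list, and 24.1% were in none of the 5. Of the 8674 new peaks, 44.1% were in the 12 h list and 42.2% in the 48 h list, and 34.5% (33.5 to 35.5) were in none. Shared peaks were in 76.6% to 96.8% of cases in each of the other lists. In the normoxia list the shares were 20.1% of new and 30.5% of left-behind peaks.

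Return was common. A left-behind peak was in at least 1 earlier and at least 1 later list in 46.0% of cases, and a new peak in 36.5%. Among left-behind peaks whose -log10 q reached 8, 1437 of 1811 (79.3%) were again called at 48 h. Of the 19770 peaks at 48 h without a 36 h peak, 8743 (44.2%) had been in the 24 h list. The full 24 h list lacked a partner at 36 h for 25.3% of its peaks and at 48 h for 16.5%; among the 20000 strongest these shares were 18.6% and 18.2%. The list of 48 h was the longer of the later 2, with 74284 peaks.

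**Figure D3:**
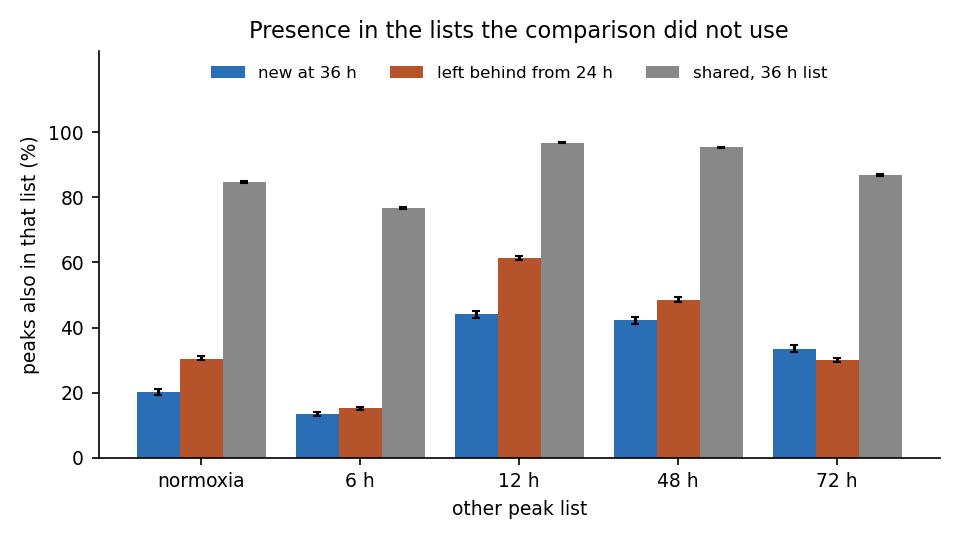
Share of new (blue), left-behind (brown) and shared peaks (grey, 36 h list) that overlapped a peak of each of the 5 lists not used in the comparison, in percent with exact 95% intervals. Both kinds of differing peak are highest at 12 h (44.1% and 61.3%), the longest list, and so are shared peaks (96.8%). Left-behind peaks exceed new ones in all lists but that of 72 h (30.0% and 33.5%).

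Lasting changes were few. Peaks first called at 36 h and present at both 48 h and 72 h numbered 442 (5.10% of new peaks), and peaks called in normoxia, 6, 12 and 24 h and in none of the later lists numbered 173 (0.953% of left-behind peaks). By the same patterns, 458 left-behind peaks (2.52% of them) were absent up to 12 h and present at 48 h and 72 h. In turn, 53 new peaks (0.611% of them) were in all 3 lists before 24 h and in neither list after 36 h. Of shared 36 h peaks, 0.763% had the first of these patterns and 0.341% the second. The 2 strongest of each lasting kind are printed as above, to set the DNA of the sites side by side.
Fezf2 first called at 36 h and kept, chr14:13270027-13270177: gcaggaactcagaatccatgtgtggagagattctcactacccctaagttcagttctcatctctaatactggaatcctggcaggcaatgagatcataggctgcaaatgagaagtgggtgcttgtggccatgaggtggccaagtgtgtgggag
Tlr4 first called at 36 h and kept, chr4:66513131-66513281: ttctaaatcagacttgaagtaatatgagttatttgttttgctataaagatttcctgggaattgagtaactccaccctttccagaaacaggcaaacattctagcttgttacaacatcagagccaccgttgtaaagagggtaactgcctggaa
Adamts6 called up to 24 h and lost, chr13:105311787-105311937: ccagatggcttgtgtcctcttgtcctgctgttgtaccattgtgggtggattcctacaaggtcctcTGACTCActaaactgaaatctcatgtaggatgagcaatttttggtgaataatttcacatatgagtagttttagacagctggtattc
Asphd2 called up to 24 h and lost, chr5:112831674-112831824: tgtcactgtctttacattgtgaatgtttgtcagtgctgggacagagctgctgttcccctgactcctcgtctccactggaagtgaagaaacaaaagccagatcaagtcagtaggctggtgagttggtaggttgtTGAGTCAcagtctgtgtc

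The pair that was kept held no match to the 4 motifs in these bases, and each of the pair that was lost held an AP-1 word. The site named for Fezf2, its nearest start at 91723 bp, lay in an intron of Cadps, a gene of vesicle release, with 22 reads (36 h), 10 (48 h) and 24 (72 h). The site in an intron of Tlr4, the receptor of bacterial lipopolysaccharide, had 24, 17 and 25 reads. Sites near Samsn1, in an intron of Itga8 and near Rgs2 followed, with 20 to 25 reads at 36 h and 10 to 19 later. Itga8 encodes an integrin alpha chain and Rgs2 a regulator of G protein signaling. At 36, 48 and 72 h, -log10 q was 12.1, 2.28 and 11.5 for the Fezf2 site and 11.6, 6.86 and 10.3 for that in Tlr4. At 48 h and 72 h it was 4.31 and 4.93 near Samsn1, 2.02 and 6.42 at Itga8, and 4.63 and 6.08 near Rgs2.

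Among the sites that were lost, that 5543 bp upstream of Arnt2, which encodes a partner of the HIF alpha subunits in nerve cells, had 10 reads in normoxia, 17 at 6 h, 17 at 12 h and 19 at 24 h. That in an intron of Sp100, a nuclear body gene, had 10, 20, 32 and 19, and that 3287 bp upstream of Fgf5, a fibroblast growth factor gene, had 5, 15, 20 and 19. That near Asphd2 had 14, 24, 28 and 27. In the same order, -log10 q was 6.05, 5.59, 7.99 and 11.5 near Arnt2 and 6.05, 7.71, 23.2 and 11.5 at Sp100. Near Fgf5 it was 1.43, 4.16, 10.7 and 11.3, and near Asphd2 5.57, 9.04, 11.4 and 14.3. The lowest summit called held 8 reads at 36 h and 9 reads at 48 h and 72 h, so a lost site can still have had fewer reads than that.

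Left-behind peaks lay less often at promoters than shared peaks. A summit was within 1 kb of a protein-coding start in 10.2% of new peaks (9.55 to 10.8) and in 5.93% of left-behind peaks (5.59 to 6.28), against 22.1% and 22.0% of shared peaks of the same lists. Within bounded classes of strength the gap between new and shared 36 h peaks was smaller. Their shares were 9.61% and 11.2% below a -log10 q of 3, 10.1% and 10.4% at 3 to 5, and 10.9% and 13.3% at 5 to 8. Left-behind and shared 24 h peaks had 6.18% and 13.8%, 6.04% and 13.1%, and 6.01% and 13.4% in these classes. It was over 50 kb from any start in 31.3% of new, 39.5% of left-behind and 29.3% of shared peaks of either list. Mean GC content over 100 bases on each side of the summit was 48.7% in new, 46.4% in left-behind and 51.5% in shared peaks. At like strength the GC content of new and shared 36 h peaks was 48.0% and 48.0% below 3, 48.9% and 48.2% at 3 to 5, and 49.4% and 49.4% at 5 to 8. That of left-behind and shared 24 h peaks was 46.0% and 49.2%, 46.6% and 49.2%, and 46.7% and 49.5%. New peaks were thus nearer to promoters and richer in GC than left-behind peaks, and only left-behind peaks were poorer in GC than shared peaks of their own list in all 3 classes.

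The difference between the kinds was wider among the strongest peaks. Of the 3718 peaks among the strongest at 36 h only, 30.5% lay at a promoter, and of the 3718 at 24 h only, 13.2%; the peaks that were among the strongest at both times had 33.7%. From 36 h to 48 h, a step that shares the 36 h list, 35.0% of the peaks that left the strongest 20000 and 13.9% of those that entered lay at a promoter. From 12 h to 24 h the shares were 19.9% and 23.2%. Over the 6 steps, promoters were 12.2% to 30.5% of the peaks that entered and 13.2% to 35.0% of those that left.

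Motif words set the kinds apart. AP-1 words were within 100 bp of the summit in 19.9% of new peaks (19.1 to 20.8) and in 30.6% of left-behind peaks (29.9 to 31.2). All peaks of the lists had 33.4% at 36 h and 34.8% at 24 h, and shared peaks 35.6% and 36.2%. Among peaks over 1 kb from a start, 21% of new, 31.4% of left-behind and 43.5% of shared 36 h peaks had the word. Among peaks at promoters the order differed, with 10.1% of new, 17.4% of left-behind and 7.61% of shared 36 h peaks.

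Within bounded classes of strength the share of AP-1 words stayed lower in new than in shared 36 h peaks. It was 17.4% and 29.2% below a -log10 q of 3 and 20.2% and 31.7% at 3 to 5. With a -log10 q of 5 to 8 they were in 23.6% of new peaks (21.3 to 26.0) and 34.7% of shared 36 h peaks (33.7 to 35.8). The class of 8 or more is not of like strength, since it reaches 20.2 in new and 166 in shared 36 h peaks. Left-behind peaks of 5 to 8 had 34.5%, close to the 34.1% of shared 24 h peaks. Among distal peaks with a -log10 q of 3 to 8, the shares in new and left-behind peaks were 23.6% and 35.4% below 45% GC, 22.9% and 34.1% at 45 to 50%, 23.3% and 30.0% at 50 to 55%, and 16.5% and 21.4% above. New peaks were the lower in each class of GC. Shared 24 h peaks had 38.1%, 36.9%, 33.1% and 23.5% in these classes. Left-behind peaks were below them in each, with overlapping intervals.

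**Figure D4:**
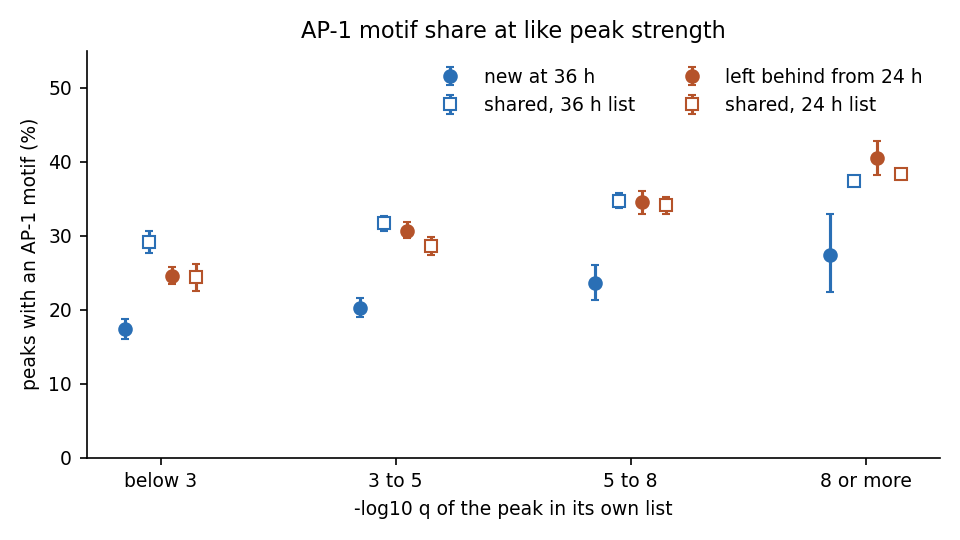
Share of peaks with an AP-1 word within 100 bp of the summit, in percent with exact 95% intervals, by -log10 q of the peak in its own list, for new (blue circles) and shared 36 h peaks (blue squares) and for left-behind (brown circles) and shared 24 h peaks (brown squares). The blue circles are the lowest at each strength, at 17.4%, 20.2%, 23.6% and 27.4%, while brown circles lie near the brown squares, from 24.6% against 24.4% below 3 to 34.5% against 34.1% at 5 to 8; the class of 8 or more is open-ended and reaches higher in shared peaks.

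Low AP-1 shares were seen in other steps too. The share in new peaks was 18.9% to 31.9% over the 6 steps, and 18.9% from 48 h to 72 h, below that from 24 h to 36 h. In left-behind peaks it was 14.6% to 30.6%, the highest being that from 24 h to 36 h. From 36 h to 48 h, a step that shares the 36 h list, it was 28.6% in new and 20.8% in left-behind peaks. Peaks in none of the other 5 lists had AP-1 words least often, 13.4% of new and 23.3% of left-behind ones, and those in 3 or more lists had 25.4% and 34.3%.

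CTCF words were more frequent in both kinds than in shared peaks. They were in 6.55% of new peaks (6.04 to 7.09), 6.57% of left-behind peaks (6.21 to 6.94), and 3.69% and 3.68% of shared 36 h and 24 h peaks, against 4.09% and 4.41% of all peaks. The excess was not seen among weak peaks: with a -log10 q below 3, new peaks had 4.68% and shared 36 h peaks 5.48%, and left-behind peaks had 5.43% and shared 24 h peaks 6.71%. With 3 to 5 the shares were 7.15% and 6.87%, and 7.20% and 7.66%. With 5 to 8 they were 8.19% (6.77 to 9.81) and 5.15% (4.68 to 5.66) for new and shared 36 h peaks, and 7.23% (6.39 to 8.15) and 6.70% (6.09 to 7.35) for left-behind and shared 24 h peaks, with overlapping intervals. Among the 20000 strongest peaks it was in 2.90% of those at 36 h only, 2.34% of those at 24 h only and 1.42% of 36 h peaks strong at both times.

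The word of HIF was in 22.2% of new and 18.6% of left-behind peaks, below the 28.6% of shared peaks of either list and the 27.7% and 26.1% of all peaks. It holds a CG, and its share in shared peaks of -log10 q below 3, 20.4% at 36 h, was close to that of new peaks, 20.3%. Left-behind peaks had the word less often than shared 24 h peaks of like strength, with 17.5% and 22.4% below 3, 18.7% and 24.2% at 3 to 5, and 19.8% and 24.0% at 5 to 8. SP/KLF words (GGGCGG) were in 7.94% of new, 4.93% of left-behind and 17.9% of shared 36 h peaks. TEAD words (GGAATG) were in 13.4%, 16.5% and 17.1%. C/EBP words were in 9.85% of new peaks (9.23 to 10.5) and 8.41% of left-behind peaks (8.01 to 8.83), with 8.10% in shared 36 h peaks. Within classes of strength the intervals of new and shared 36 h peaks overlapped for C/EBP, with 9.95% and 9.18% below 3, 9.71% and 9.26% at 3 to 5, and 10.0% and 8.64% at 5 to 8.

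Forkhead words (TGTTTAC or TATTTAC) were in 4.99% of new peaks, 6.09% of left-behind peaks (5.74 to 6.45) and 4.89% of shared 24 h peaks. POU words (ATGCAAAT) were in 0.980%, 1.53% and 1.24%. Of the 21 motifs searched, 10 were less and 2 (CTCF and C/EBP) more frequent in new than in shared 36 h peaks with intervals apart. In left-behind peaks 10 were less and 3 (CTCF, forkhead and POU) more frequent than in shared 24 h peaks. The HIF word is part of the E-box CACGTG, which was searched as a motif of its own.

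**Figure D5:**
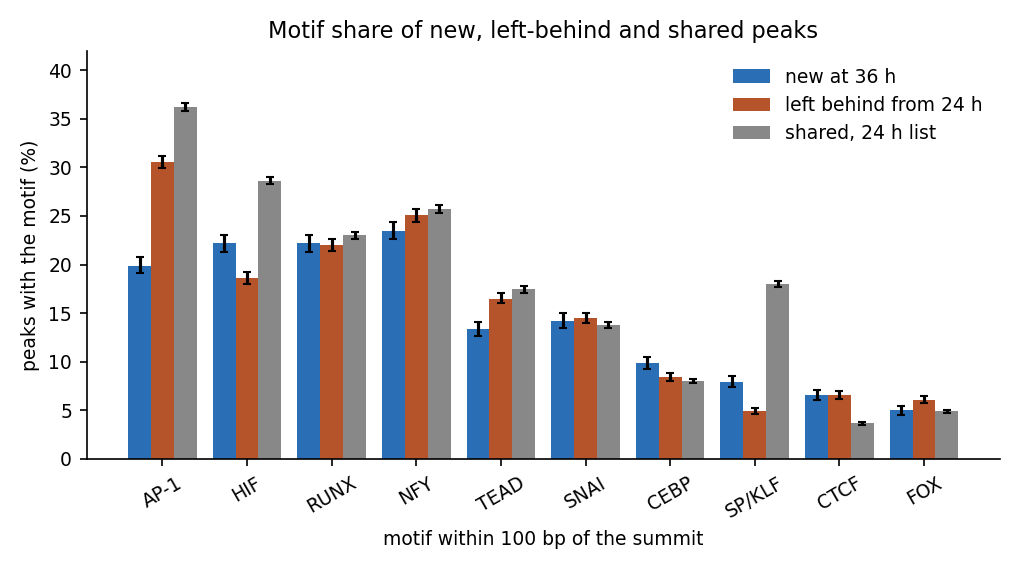
Share of peaks with each of 10 motifs within 100 bp of the summit, in percent with exact 95% intervals, for new (blue), left-behind (brown) and shared peaks (grey, 24 h list). AP-1 is lowest in new peaks (19.9% against 30.6% and 36.2%), SP/KLF is lowest in left-behind peaks (4.93%), and CTCF is higher in both than in shared peaks (3.68%).

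Shared regions were compared by their reads. Overlapping peaks of both lists were joined, which gave 52958 shared regions, and the highest summit of each list was taken, so the 2 summits compared in a region can lie at different places. The median ratio of reads, 36 h over 24 h, was 0.887, while the genome background had a ratio of 1.20. Relative to the median ratio, 915 regions (1.73%) were over 2-fold higher at 36 h and 540 (1.02%) over 2-fold lower. Relative to the genome background the same regions gave 107 and 4223, and 85.3% of regions were lower at 36 h. The direction of a single region is therefore given relative to the median region, which fixes no absolute change.

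Promoters had a higher median ratio than distal regions. The median log2 ratio, relative to all shared regions, was 0.0738 at promoters (n = 11529) and -0.0331 at distal regions (n = 41429), and over 2-fold lower regions numbered 22 and 518. Over 2-fold higher regions numbered 199 and 716, which is the same share of each. Over all distal regions the median was -0.0491 with an AP-1 word (n = 18160) and -0.0111 without it (n = 23269). With 30 to 60 reads at 24 h, promoters had a median of 0.0738, distal regions with an AP-1 word -0.124 and those without it -0.159. The order of the distal regions was thus reversed in this class, which was cut on the reads of 24 h alone. Regions with a CTCF word had a median of 0.129, with 73 over 2-fold higher and 10 lower. The ratio followed GC content, with medians of -0.10 below 40% GC, -0.05 at 45 to 50% and 0.09 at 60% and above; among distal regions alone the first and last were -0.10 and 0.11.

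The region with the largest ratio upward, among those with 20 reads or more in either list, lay 21542 bp downstream of the start of Taf8, a subunit gene of the general factor TFIID, with 7 reads at 24 h and 27 at 36 h, a 4.35-fold higher value relative to the median (1.85 to 11.8). Its reads were 8 in normoxia, 12 (6 h), 22 (12 h), 18 (48 h) and 12 (72 h) in the other lists. The region with the largest ratio downward lay in an intron of Stx1a, a syntaxin gene, with 38 reads at 24 h and 9 at 36 h (ratio 0.267, 0.114 to 0.562), and with 40 reads at 12 h and 32 at 48 h. The bases at both summits follow, with capitals as above.
Taf8 higher at 36 h, chr17:47617619-47617769: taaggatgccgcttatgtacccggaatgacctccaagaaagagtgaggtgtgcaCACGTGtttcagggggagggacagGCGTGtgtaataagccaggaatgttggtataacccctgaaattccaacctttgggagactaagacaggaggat
Stx1a lower at 36 h, chr5:135504979-135505129: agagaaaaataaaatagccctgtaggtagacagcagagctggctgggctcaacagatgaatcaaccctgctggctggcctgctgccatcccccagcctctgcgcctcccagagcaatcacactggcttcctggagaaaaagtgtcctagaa

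The Taf8 window held 3 HIF matches, of which 2 overlap on opposite strands, and the Stx1a window held none of the 4 motifs. The next regions upward were in a Dennd2c intron (8 and 29 reads), 71 bp from a start of Gpr137 (9 and 32), at the annotated start of 4921517L17Rik, beside Scand1, (8 and 26) and 101389 bp downstream of the Rab11fip4 start (7 and 22). A region in an intron of Trp63, which encodes p63, a factor of basal epithelial cells, had 21, 23, 29, 32, 8, 29 and 17 reads in the 7 lists from normoxia to 72 h. Its -log10 q was lowest at 36 h (1.37), and it held an AP-1 word. Regions near BC026585 and Nkain2 and in an intron of Dapk1, the death-associated kinase gene, had 33 to 35 reads at 24 h and 9 at 36 h. All 10 regions were chosen for their ratios, so the values are descriptions.

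Promoters of named pathways mostly kept their peak. A gene had a promoter peak when at least 1 base of a peak lay within 1 kb of an annotated start. Such a peak was found at 36 h and not at 24 h for 407 of 22367 protein-coding genes (1.82%), and at 24 h and not at 36 h for 423 (1.89%). The 219 genes of 15 lists were drawn up with earlier results of these data known; 218 were in the annotation, and 6 (2.75%) had a promoter peak at 36 h only and 3 (1.38%) at 24 h only, near the shares over all genes. In all, 174 had one at both times and 35 at neither.

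Of the 2 times, the genes with a promoter peak at 24 h only were Slc2a3, a glucose transporter (-log10 q 3.47, and 3.62 at 48 h and 5.32 at 72 h), Trf, the transferrin gene (1.96, and 5.82 at 48 h), and Npas2, a clock factor (7.60, and 6.05 in normoxia and 2.92 at 48 h). Those with one at 36 h only were Cxcl2, a chemokine that draws neutrophils (3.25, and 3.34 at 48 h), Lif, a cytokine of the interleukin 6 family (3.42, and 4.53 at 12 h), Ehf, an epithelial ETS factor (4.04), Pitx1 (1.97, and 4.71 at 12 h), Lyz2 and Pecam1 (3.31, and 10.7 at 12 h). Ehf had a promoter peak in every list but those of 24 h and 72 h. All 9 were weak peaks at 24 h or 36 h, where the highest -log10 q was 7.60.

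The glucose uptake and glycolysis genes had a promoter peak at both times in 19 of 21 cases, with Slc16a3 at neither time. Their summit reads had a median log2 ratio of -0.03 relative to the median region (range -0.31 to 0.52), against 0.07 over the 11340 genes with both peaks. Hk2, which encodes hexokinase 2, had 117 reads at 24 h and 115 at 36 h, and Ldha, the lactate dehydrogenase gene, 49 and 36. All 9 oxygen sensing genes had both peaks (median -0.14, with 4 above and 5 below 0). The highest was Egln1, a prolyl hydroxylase that marks HIF for destruction, with 27 and 42 reads (log2 ratio 0.81, interval 0.08 to 1.56). Intervals of single genes were not adjusted for the 174 listed genes compared. Of 25 other HIF targets, 22 had both. Vegfa, the vascular growth factor gene, had 24 and 12 reads (-0.83, -1.96 to 0.23), and Bnip3, a mitophagy gene, 136 and 130.

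The AP-1 subunit genes had both peaks in 9 of 10 cases, with a median log2 ratio of 0.16 (-0.09 to 0.70); Jun had 122 and 121 reads and Fos 16 and 23. The unfolded protein and amino acid stress genes had both in 15 of 15 (median 0.17) and the E2F and cell cycle genes in 22 of 22 (0.11). The epithelial identity genes had both in 17 of 21 (0.17) and the mesenchymal transition genes in 12 of 16 (0.00, with 6 above and 6 below 0). The lowest of these 12 was Snai2, with 18 and 9 reads (-0.83, -2.16 to 0.40). The highest was Mmp9, a matrix metalloprotease gene, with 12 and 22 (1.05, -0.03 to 2.20). Both intervals include 0. The circadian clock genes had both in 11 of 12 (0.24), and Per2, a repressor of the clock, had the largest ratio of all list genes, with 33 and 67 reads (1.20, 0.57 to 1.84). Forkhead genes had both in 13 of 17, the factors named for tumor cells in 13 of 17 annotated and the myeloid-recruiting cytokines in 8 of 14, with medians of 0.03, 0.00 and -0.07.

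The genes with most peaks left behind were genes with many peaks, and their shares are to be read against the 25.3% of the whole 24 h list. By nearest start, Lphn3, an adhesion receptor gene, had most, 22 of its 64 peaks at 24 h (34.4%), and 2 new peaks among 47 at 36 h. Efna5 and Efnb2, which encode ephrins, and Epha4, which encodes an ephrin receptor, had 21 of 76, 18 of 51 and 20 of 55. Plxna2, a semaphorin receptor gene, had 18 of 43, Mef2c, a MADS-box factor gene, 18 of 42, and Pde4d, a cAMP phosphodiesterase gene, 21 of 66. Dsel, Macrod2 and Cntn5 had 20 of 48, 18 of 72 and 18 of 35. Macrod2 (25.0%) and Efna5 (27.6%) were near the share of the whole list, and Cntn5 (51.4%) was farthest above it. The median distance of these peaks from the start was 33502 bp at Pde4d and 1194194 bp at Dsel, and these counts were not scaled by the length of the gaps between genes.

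New peaks were most numerous near Cntn5, 14 of 31, and Myc, 12 of 81 at 36 h, where 17 of 85 were left behind, so Myc had shares of both kinds near or under those of the whole lists (14.8% new). Slc39a11, a zinc transporter gene, had 11 of 38, Tet2, a DNA demethylase gene, 9 of 24, and Runx1, a RUNX factor gene, 9 of 35. Khdrbs3 had 9 of 13, Slc8a1 9 of 22, Gm826 10 of 35, Gm15319 9 of 28 and Zpld1 9 of 34. These shares are to be read against the 13.8% of the whole 36 h list. Peaks left behind were 18 of 35 near Cntn5, 8 of 12 near Khdrbs3, 14 of 39 near Zpld1 and 9 of 27 near Gm15319. Slc8a1 had 6 of 19 left behind, Gm826 9 of 34, Slc39a11 7 of 34, Tet2 4 of 19 and Runx1 6 of 32. By chromosome, new peaks were 11.6% to 16.1% of the peaks of each autosome and 8.57% of those of chromosome X (7.23 to 10.1). Left-behind peaks were 22.0% to 27.9% on autosomes and 26.6% on X.

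Set among the 6 consecutive steps, that from 24 h to 36 h was compared by its shares. Over the full lists, whose lengths differ, new shares ran from 12.2% (12 h to 24 h) to 44.8% (6 h to 12 h) and left-behind shares from 5.25% (6 h to 12 h) to 30.4% (normoxia to 6 h), with 13.8% and 25.3% here. At equal length, the new share was 18% from 12 h to 24 h, 18.6% here, the second lowest, 18.9% from 36 h to 48 h, 19.6% from 48 h to 72 h, 21.8% from normoxia to 6 h and 25.6% from 6 h to 12 h. The 4 steps after 12 h were thus within 2 percentage points of each other, and without replicates their order cannot be told from noise. Genes with a promoter peak new at a step numbered 180 to 1160, and 407 here; those left numbered 136 to 679, and 423 here.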

How the data were processed

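Bulk ATAC-seq of 4T1 cells was deposited as 1 peak list for each of 7 groups of 2 samples. The authors trimmed the read pairs and mapped these to mm9 with Bowtie2 (version 2.1.0). Proper pairs of high mapping quality were kept by them, Picard (version 1.79) marked the duplicates for removal, mitochondrial reads were dropped, replicates were merged and narrow peaks were called with MACS2 (version not given in the sources used here). The submitters' notes also name DESeq. The deposited values used are the fold enrichment at the summit (a ratio to the local background) and the -log10 p-value and q-value that MACS2 gives. The lowest -log10 q of the deposited lists was 1.30 to 1.31, a q of 0.05, which is looser than the 0.01 of the methods. Reads per sample and values per replicate were not used here. Unmapped columns numbered 0.

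Intervals listed with several summits were taken once. Summit reads and the genome background were recovered from the fold enrichment and the -log10 p. Peaks overlapped when they shared at least 1 base. Shared regions are unions of overlapping 24 h and 36 h peaks, each with its highest summit per list, and their ratio was divided by the median ratio. Promoter shares of peaks and shared regions count summits within 1 kb of a protein-coding start of the GENCODE annotation of NCBIM37. For counts and reads by gene, a promoter peak has at least 1 base within 1 kb of a start, wherever its summit lies. Motifs were searched 100 bp on each side of the summit on both strands. No filter on problem regions was applied. Shares have exact 95% Clopper-Pearson intervals. Peaks are not replicates, and labels do not say that the pooled samples came from separate cultures. Tables were handled with pandas 2.3.3 and numpy 2.4.6 under Python 3.11.15, intervals came from scipy 1.17.1, sequences from pysam 0.24.0 and plots from matplotlib 3.10.9, and the functions were checked on simulated data, where 13 of 13 checks gave the planted value.

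Named sites were the 10 new and 10 left-behind peaks of highest -log10 q, the 5 of each kind of highest fold among the 20000 strongest, the 5 strongest of each lasting kind, the 5 shared regions of largest ratio each way with 20 or more reads in either list, listed genes whose promoter peak differed, and the 10 genes with most peaks of each kind. Listed genes named with reads alone were chosen after their values were seen. The members, gene lists and motifs were chosen with earlier results of these data known, and the motif TTGGCA (NFI) was added after the files were seen. Other overlap rules, thresholds, ranks, windows and scalings were tried.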

Additional observations from a re-analysis of the deposited data

How the results depend on the processing

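No paired analysis was possible because each list pools both replicates of its group, and for the same reason no replicate could be left out. Of 86 alternative values, 24 moved by less than their counting interval or 1.5 times, and 62 moved by more. They are shares and counts, which have no sign, so a reversal could not be seen. The cause was not tested. The new and left-behind shares were 14.8% and 26.1% when 50% of either peak had to be covered, 17.1% and 27.5% with summits within 250 bp, 13.2% and 24.6% at a -log10 q of 2 or more, 10.1% and 22.6% at 5 or more in both lists, and 3.66% and 10.3% for such peaks against the full other list. Merging peaks within 200 bp gave 25.0% left behind. Among the strongest peaks, the shares were 14.2% and 14.3% ranked by -log10 q, 26.1% and 26.1% for 10000 peaks, and 0.0550% and 0.415% for 20000 against the full other list.

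AP-1 shares of new and left-behind peaks were 23.0% and 34.6% over whole peaks, 24.3% and 36.6% at a -log10 q of 5 or more and 35.4% and 45.1% among the strongest, and new peaks were the lower in all 4 alternatives run. CTCF shares were 7.11% and 7.23% over whole peaks and 2.90% and 2.34% among the strongest, with 8.91% of new peaks at 5 or more. Peaks in none of the other 5 lists were 36.5% and 25.4% by summits and 15.6% and 7.08% at 5 or more. Regions over 2-fold higher and lower numbered 107 and 4223 by the genome background and 207 and 156 at 5 or more in both lists. Within 5 kb of a start, 706 genes had a peak at 24 h only. Alternatives chosen after seeing the data gave 97 and 134 genes with a new or left-behind promoter peak of 5 or more, and promoter shares of 11.5% and 5.50% at 5 or more and 30.5% and 13.2% among the strongest.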

Other observations

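Shared regions were also summarised in windows of 2 Mb, chosen after the data were seen. Of 1137 windows with at least 10 shared regions, the medians of the log2 ratio of reads, 36 h over 24 h relative to all shared regions, had a 5th percentile of -0.20 and a 95th of 0.24. The highest median, 0.56 over 50 regions, was at chr2:30000001-32000000, where mean GC content was 61.9% and 19 of 69 peaks were new. The next with over 50 regions, 0.46 over 53, was at chr11:96000001-98000000 (mean GC 59.4%). A window at chr9:2000001-4000000 reached 0.50 with 13 regions at a GC of 40.1%. The lowest medians were -0.42 at chr3:12000001-14000000 (14 regions, GC 38.9%) and -0.41 at chr8:68000001-70000000 (17 regions, GC 47.1%), where 20 of 37 peaks at 24 h were left behind.

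The 10 strongest left-behind peaks included 3, named for Mast4, Srek1 and Adamts6, within 2 Mb on chromosome 13. In the window centred between the outer 2, chr13:103703036-105703035, 27 of 84 peaks at 24 h (32.1%) were left behind, these 3 included, against 25.3% of all 24 h peaks, and the 55 shared regions had a median log2 ratio of 0.04.

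Of the 407 genes with a promoter peak at 36 h and none at 24 h, 201 had one at 12 h, 175 at 48 h and 121 in normoxia. Of the 423 with the reverse, 314 had one at 12 h, 246 at 48 h and 159 in normoxia. Among the 11340 genes with a promoter peak at both 24 h and 36 h, 11269 had one at 12 h, 11181 at 48 h and 10979 in normoxia. Among these lists, the counts of each set had the same order as the list lengths, 81732 peaks at 12 h, 74284 at 48 h and 60070 in normoxia. With 72 h (64083 peaks) included, the genes with both peaks broke this order, with 10921 at 72 h against 10979 in normoxia.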
